A study of Mus musculus with 8 samples.

Results

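The genes described here are 46 targets of the transcription factor NRF2 and antioxidant enzymes of the mouse, out of 55416 Ensembl identifiers in the deposited table. They were selected by name, as the identifiers that carry the listed symbols in the GENCODE annotation, and each symbol matched 1 identifier. The list was split by role into regulators, classical NRF2 targets, cystine and glutathione genes, pentose phosphate enzymes and peroxidases. Its other roles were superoxide dismutases, glutathione S-transferases, and iron storage with export of glutathione conjugates. RNA-seq was run on dorsal epidermis taken from mouse pups at postnatal day 4, with 4 libraries labelled control and 4 labelled RoraEKO. RoraEKO pups came from a cross of mice with floxed alleles of *Rora*, which encodes the nuclear receptor RORα, to mice with Cre under the K14 promoter, which is active in basal keratinocytes and in the hair follicle and sebaceous gland lineages that share it. The controls carry the genotype label WT, and the study calls them control littermates; whether they carried floxed alleles or Cre is not given in the sources used here. Back skin of both genotypes was heated briefly and the epidermis was peeled from the dermis. The comparison asked whether the NRF2 programme moved together when the genotypes were compared.

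NRF2, the product of *Nfe2l2*, is held low in resting cells because KEAP1 binds it and directs its degradation. When oxidants or electrophiles modify KEAP1, NRF2 accumulates, enters the nucleus, pairs with small MAF proteins and binds antioxidant response elements near genes for glutathione synthesis, quinone reduction, NADPH supply, thioredoxin recycling, iron storage and conjugate export. The control of NRF2 acts largely on the protein, so the message of *Nfe2l2* is a poor guide to its activity and the target genes are the usual read-out. In epidermis the pathway is known for protecting keratinocytes against ultraviolet light and electrophiles, and its constant activation in keratinocytes thickens the cornified layer.

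Of the 46 genes, 42 passed the filter on low counts and were tested among 13147 genes, and 5 were called at an adjusted p of 0.05 and a change of at least 1.5-fold by the quasi-likelihood test of edgeR. *Slc7a11* and *Gsto1* rose in the RoraEKO libraries, and *Gsta2*, *Gstm5* and *Fth1* fell. Among all genes tested, 2.3% were called higher and 3.22% lower. The other 37 tested members were not called. Log2 fold changes lay above 0 for 16 members and below 0 for 26, with a median of -0.09, against 5777 above, 7370 below and a median of -0.04 over all genes tested. The sign of the member median depended on single libraries: it was 0.09 without control A1 and 0.11 without RoraEKO C2, and -0.23 with *Xist* as a covariate. The called members went both ways. Single members nonetheless departed from 0 by more than the typical gene did. The median size of the log2 fold change was 0.35 for the members and 0.22 for all genes, and an unadjusted p under 0.05 was reached by 15 members (35.7%) against 18.2% of all genes. Members are not independent of each other, so these shares are a description.

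**Figure D1:**
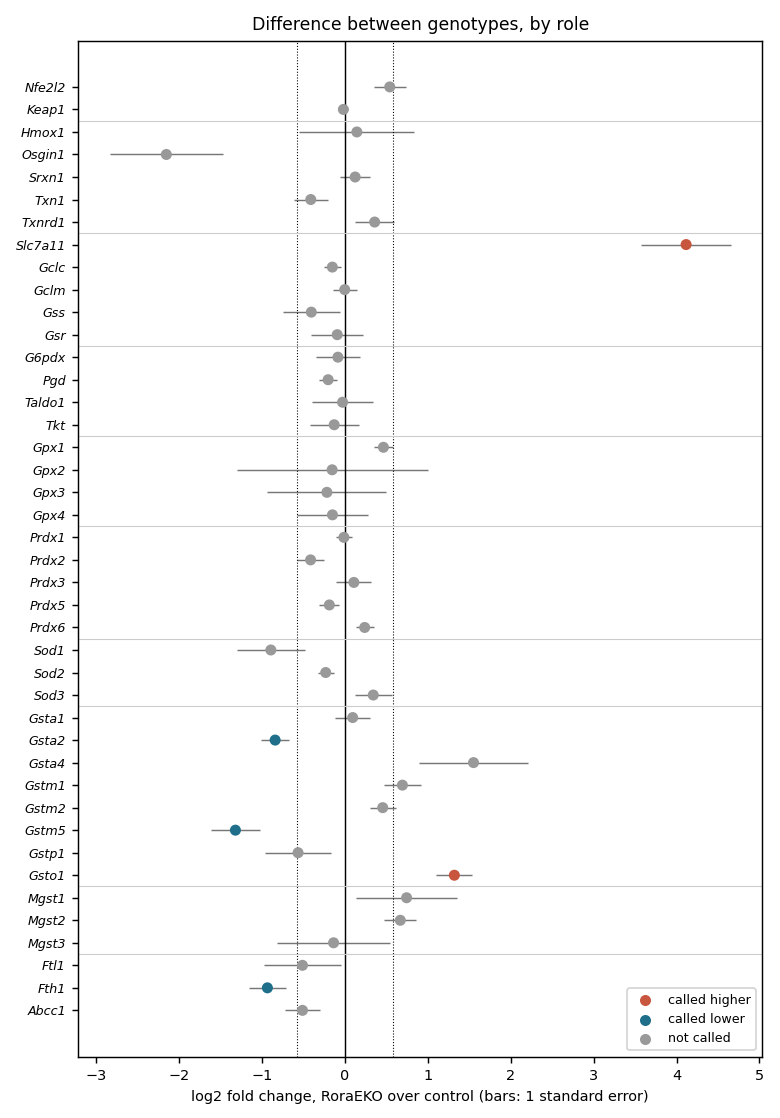
Log2 fold change of RoraEKO over control for the 42 tested members, one row per gene in role groups divided by grey lines, with bars of 1 standard error and dotted lines at 1.5-fold. Slc7a11 stands apart at 4.11, Gsto1 lies at 1.32, the 3 genes called lower lie between -1.32 and -0.84, and 31 of the 42 lie within the dotted lines.

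The promoters of the 5 called genes, and of the classical NRF2 target *Gclm* for comparison, are printed because the members that moved are the ones whose regulatory sequence a reader would look for. Each line gives the 250 bases before the transcription start, 5′ to 3′ on the gene's own strand, from RefSeq on GRCm38.p6. The windows lie at chr3:50443614-50443863 (minus strand) for *Slc7a11*, chr19:47854723-47854972 (plus) for *Gsto1*, chr9:78347146-78347395 (minus) for *Gsta2*, chr3:107895604-107895853 (plus) for *Gstm5*, chr19:9982396-9982645 (plus, the downstream of 2 listed starts) for *Fth1* and chr3:122245307-122245556 (plus) for *Gclm*. Capitals mark TGATGNAA, the core of the amino acid response element bound by ATF4, in *Slc7a11*, and TGACNNNGC, the core of the antioxidant response element, in *Gstm5* and *Gclm*, on either strand.
Slc7a11: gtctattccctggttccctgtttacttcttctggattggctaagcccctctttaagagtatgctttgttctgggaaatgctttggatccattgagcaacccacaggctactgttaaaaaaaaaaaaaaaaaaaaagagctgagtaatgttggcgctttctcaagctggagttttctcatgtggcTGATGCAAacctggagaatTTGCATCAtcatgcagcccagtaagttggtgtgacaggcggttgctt
Gsto1: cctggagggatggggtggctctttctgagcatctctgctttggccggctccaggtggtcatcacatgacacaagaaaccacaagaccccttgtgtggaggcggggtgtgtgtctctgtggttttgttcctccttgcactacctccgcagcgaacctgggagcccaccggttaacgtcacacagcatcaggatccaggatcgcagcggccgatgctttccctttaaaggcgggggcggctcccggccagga
Gsta2: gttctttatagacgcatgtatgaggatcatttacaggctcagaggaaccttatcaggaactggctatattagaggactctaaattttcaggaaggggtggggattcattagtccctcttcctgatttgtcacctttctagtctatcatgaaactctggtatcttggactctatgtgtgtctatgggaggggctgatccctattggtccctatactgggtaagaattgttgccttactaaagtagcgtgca
Gstm5: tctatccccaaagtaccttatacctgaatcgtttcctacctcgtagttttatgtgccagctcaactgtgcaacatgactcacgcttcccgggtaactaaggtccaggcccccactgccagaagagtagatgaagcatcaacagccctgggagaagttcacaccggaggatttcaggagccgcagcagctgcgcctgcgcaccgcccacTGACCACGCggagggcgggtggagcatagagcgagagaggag
Fth1: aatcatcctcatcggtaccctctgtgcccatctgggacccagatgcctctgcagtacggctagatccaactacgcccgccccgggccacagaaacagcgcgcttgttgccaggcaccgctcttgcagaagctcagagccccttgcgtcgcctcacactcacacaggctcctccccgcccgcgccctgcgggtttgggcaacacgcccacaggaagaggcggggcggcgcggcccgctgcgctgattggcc
Gclm: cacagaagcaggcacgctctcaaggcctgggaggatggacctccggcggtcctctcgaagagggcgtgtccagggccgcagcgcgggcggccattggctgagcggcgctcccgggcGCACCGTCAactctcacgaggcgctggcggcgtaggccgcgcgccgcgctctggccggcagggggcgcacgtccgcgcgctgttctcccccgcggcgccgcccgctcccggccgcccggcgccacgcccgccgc

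The *Slc7a11* window held TGATGNAA on the plus strand beginning 66 bases before the start and again on the minus strand beginning 47 bases before it. That motif occurred in 1 of the 39 members with a promoter entry (2.56%) and in 3.91% of all 27025 genes with one. TGACNNNGC occurred in 9 of the 39 members (23.08%) and in 11.52% of all genes. Of the called members, *Gstm5* held it, beginning 42 bases before the start, and in *Gclm* it began 134 bases before the start on the minus strand. AGGTCA, the half-site recognised by ROR receptors, occurred in 5 of the 39 members (12.82%) and 15.76% of all genes, and in none of the 5 called members. Both strands were searched for each motif. A match describes these letters in these windows only. The TGATGNAA search was added after the data were seen, and a part of ATF4 in the *Slc7a11* values was not tested.

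The 8 libraries held 17286903 to 26705533 counts, so that 3 counts correspond to 0.112 to 0.174 CPM (counts scaled to a common library size), a limit that covers counting error only. Values below are CPM after scaling for library composition, given in the order control A1, B1, C1 and C6, then RoraEKO A3, B4, C2 and C3. *Rora* itself ran from 158 to 309 CPM in controls and from 154 to 237 CPM in RoraEKO libraries (log2 fold change -0.11, standard error 0.245, adjusted p = 0.877 by the edgeR quasi-likelihood test). A count over the whole gene does not show whether a floxed exon is missing, so the genotype here rests on the labels. The study also reports lower *Arntl*, a direct RORα target, in the knockout by RNA-seq and RT-PCR. Spinous keratinocyte markers, led by *Krt1* and *Krt10*, summed to 37620 to 64590 CPM in controls and 79710 to 100100 CPM in RoraEKO libraries, and granular markers to 9864 to 15040 and 8855 to 14020 CPM, whereas basal markers summed to only 245 to 1190 CPM over all libraries. *Krt1* and *Krt10* made up nearly all of the spinous sum and were separate by genotype, whereas the other spinous markers *Dsg1a* and *Dsc1* overlapped (log2 fold changes of 0.02 and 0.37), and none of the 4 was called. *Xist*, a transcript of female cells, reached 416 CPM in control C1 and 527 CPM in control C6 but no more than 0.0546 CPM elsewhere. By this transcript those 2 controls looked female and all other libraries male, so sex and genotype are partly confounded. Both also carry the letter C in their titles, so among controls sex and letter cannot be told apart. *G6pdx* and *Pir* lie on the X chromosome. Fits with *Xist* as a covariate and without those 2 controls were run as alternatives. The study describes 4 mice per genotype, and p-values measure the spread between these libraries. In bulk tissue, fewer cells of a type and less RNA per cell cannot be told apart.

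Neither regulator was called. *Nfe2l2* (chr2:75504739-75534985, minus strand, GRCm39) read 14.1, 18.3, 17.8 and 24.2 CPM in controls and 22.2, 31.1, 25.3 and 29.5 CPM in RoraEKO libraries. The RoraEKO values were mostly the higher ones, but control C6 exceeded RoraEKO A3. The means were 18.6 ± 4.18 and 27 ± 4.03 CPM (SD, n = 4 each), with a log2 fold change of 0.54, a standard error of 0.193 and an adjusted p of 0.131 in the edgeR quasi-likelihood fit. Of the 8 leave-one-out fits, 1 called it higher, the one without control C6 (log2 fold change 0.72, adjusted p = 0.0457), and over all 23 alternatives, of which 2 called it, the adjusted p ran from 0.0317 to 0.287. *Keap1* (chr9:21141026-21150679, minus strand), the adaptor that targets NRF2 for degradation, was among the steadiest members at 34.6 to 40.5 CPM in controls and 36.0 to 38.6 CPM in RoraEKO libraries, with a log2 fold change of -0.02 and a standard error of 0.0537. Of 12 further genes for partners and control of NRF2, such as the small MAF proteins, the repressor BACH1, the KEAP1 ligase subunit CUL3 and the KEAP1-binding autophagy receptor p62 (*Sqstm1*), none was called in either direction and the median log2 fold change was -0.06.

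The redox and stress genes most often used as NRF2 read-outs were not called. *Nqo1*, a quinone reductase and the best known target, read 0.457, 0.219, 0.142 and 0.150 CPM in controls and 1.17, 0.863, 0.145 and 0.20 CPM in RoraEKO libraries. With 69 counts over all 8 libraries it did not pass the filter, and it was not called when all genes with at least 1 count were tested. *Srxn1*, sulfiredoxin, which repairs overoxidised peroxiredoxins, ran from 38.6 to 59.6 CPM in controls and 45.1 to 66.2 CPM in RoraEKO libraries (log2 fold change 0.12, standard error 0.179). *Txnrd1*, the cytosolic thioredoxin reductase, ran from 136 to 223 and from 155 to 269 CPM (log2 fold change 0.36, standard error 0.237), and *Txn1*, its thioredoxin substrate, had a log2 fold change of -0.41. For each of these genes the genotypes overlapped.

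*Hmox1* and *Osgin1* varied widely between libraries. *Hmox1*, the inducible haem oxygenase, read 632, 409, 136 and 111 CPM in controls and 541, 373, 329 and 179 CPM in RoraEKO libraries. The A and B libraries of both genotypes were above the C libraries, and the genotype means of 322 ± 247 and 356 ± 149 CPM (SD, n = 4 each) differed by less than either spread. The sign of its log2 fold change, 0.14, depended on the fit: it was -0.61 with *Xist* as a covariate, -0.49 without both *Xist*-positive controls, -0.11 without control C1 or C6, -0.08 without RoraEKO A3, 0.43 with the letter as a block and 0.70 without control A1, and none of these was called. *Osgin1*, an oxidative stress-induced growth inhibitor, read 5.02, 2.24, 1.18 and 5.59 CPM in controls and 0.848, 1.44, 0.241 and 0.599 CPM in RoraEKO libraries. Only control C1 fell within the RoraEKO range. Its log2 fold change was -2.16 (standard error 0.686, adjusted p = 0.0697 by the edgeR quasi-likelihood test), on 412 counts over all libraries, and it was called lower under 7 of 22 alternatives. DESeq2 gave an adjusted p of 0.00562, and of the 8 quasi-likelihood fits that left out a single library only the one without control C1 called it (adjusted p = 0.0413), the others reaching 0.187 without RoraEKO C3.

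Within cystine uptake and glutathione synthesis, 1 of 5 genes rose and 4 were not called. *Slc7a11* (chr3:49846975-50398070, minus strand) encodes xCT, the light chain of the antiporter that imports cystine in exchange for glutamate. It read 1.83, 0.929, 2.18 and 0.676 CPM in controls and 15.7, 46.8, 20.9 and 13.9 CPM in RoraEKO libraries. The lowest RoraEKO library lay far above the highest control, and RoraEKO B4 was higher than the other 3. The means were 1.40 ± 0.715 and 24.3 ± 15.3 CPM (SD, n = 4 each), a 17.3-fold difference (log2 fold change 4.11, standard error 0.539, adjusted p = 0.00165 by the edgeR quasi-likelihood test). The counts ranged from 17 to 1139 per library. *Slc7a11* was called under all 23 alternatives, with log2 fold changes from 3.58 to 4.40 and adjusted p from 4.03e-17 to 0.0213, the *Xist* covariate and the removal of both *Xist*-positive controls included. By title letter, the differences of mean log2 CPM were 3.04, 5.52 and 3.70 in the A, B and C libraries.

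The partner and the downstream enzymes did not follow *Slc7a11*. *Slc3a2*, the heavy chain that carries xCT to the membrane, was at 33.9 ± 6.54 CPM in controls and 40.5 ± 6.94 CPM in RoraEKO libraries (SD, n = 4 each), with an adjusted p of 0.495 and a log2 fold change of 0.26 in the quasi-likelihood fit of edgeR. *Gclc*, the catalytic subunit of the rate-limiting ligase of glutathione synthesis, read 6.58, 5.57, 6.96 and 6.16 CPM in controls and 6.39, 5.96, 4.91 and 5.49 CPM in RoraEKO libraries. *Gclm*, its modifier subunit, read 6.89, 5.63, 4.78 and 7.39 CPM against 5.87, 6.29, 6.12 and 6.39 CPM, with means of 6.17 ± 1.19 and 6.17 ± 0.226 CPM (SD, n = 4 each). Both genes overlapped between genotypes, with log2 fold changes of -0.15 (standard error 0.105) for *Gclc* and -0.00 (standard error 0.143) for *Gclm*. *Gss*, glutathione synthetase, and *Gsr*, glutathione reductase, had log2 fold changes of -0.41 and -0.09 with standard errors of 0.340 and 0.312. Melanocyte markers summed to 23.8 to 54.1 CPM in controls and 16.4 to 32.3 CPM in RoraEKO libraries, and their part in the *Slc7a11* values was not tested.

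**Figure D2:**
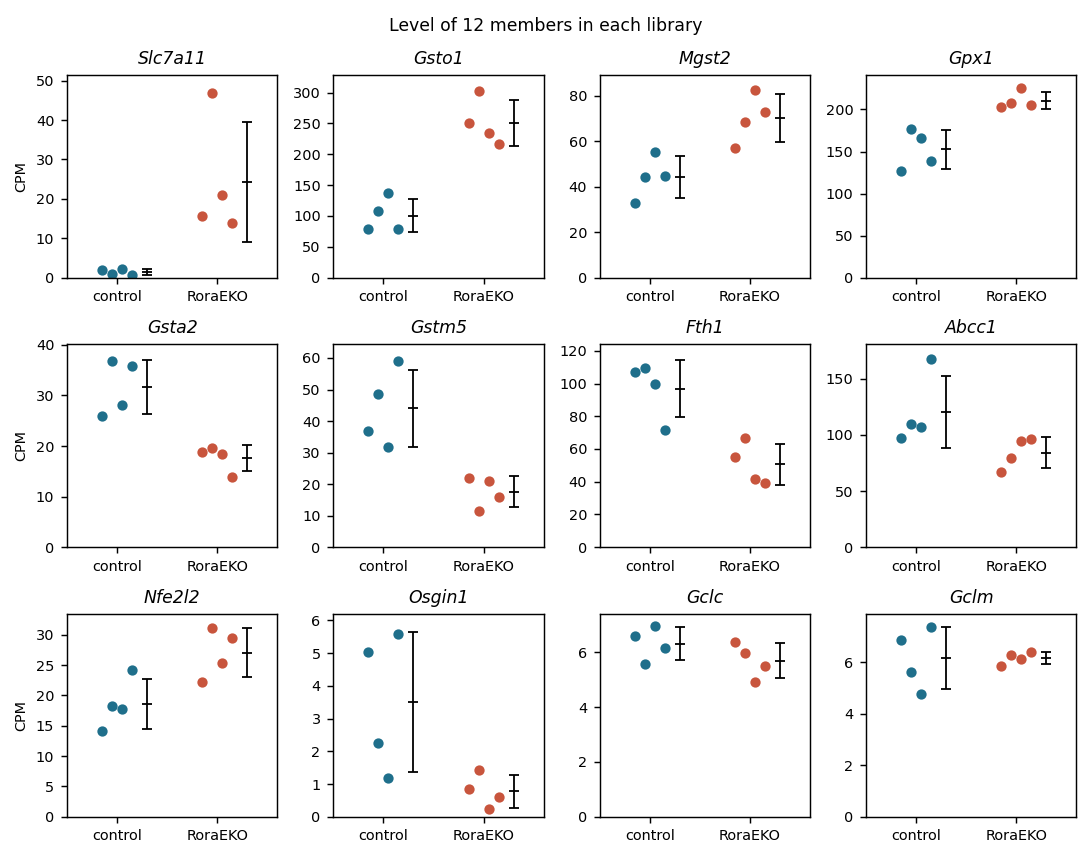
CPM of 12 members in each library, control on the left and RoraEKO on the right of each panel, with the mean and 1 SD (n = 4) beside the points; each vertical axis starts at 0. The genotypes are separate for Slc7a11, Gsto1, Mgst2 and Gpx1 (RoraEKO higher) and for Gsta2, Gstm5, Fth1 and Abcc1 (RoraEKO lower), and overlap for Nfe2l2, Osgin1, Gclc and Gclm.

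The pentose phosphate enzymes that supply NADPH, *G6pdx*, *Pgd*, *Taldo1* and *Tkt*, had log2 fold changes from -0.20 to -0.03, and none was called. *Taldo1*, transaldolase, read 204, 104, 90.3 and 73.9 CPM in controls and 137, 145, 90.1 and 90.9 CPM in RoraEKO libraries. The spread inside each genotype, from 73.9 to 204 CPM among controls, far exceeded the difference between their means of 118 ± 58.7 and 116 ± 29.5 CPM (SD, n = 4 each).

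Of 6 glutathione peroxidases, 4 were tested and none was called. *Gpx1* (chr9:108216102-108217546, plus strand), the cytosolic enzyme that reduces hydrogen peroxide, read 127, 177, 166 and 139 CPM in controls and 203, 208, 225 and 205 CPM in RoraEKO libraries. All 4 RoraEKO libraries were higher than every control. A gene annotated on the opposite strand overlaps most of its exon, so if strand was ignored in the counting its reads would be included. The difference was under 1.5-fold (log2 fold change 0.46, standard error 0.116, adjusted p = 0.0827 by the edgeR quasi-likelihood test). Among all genes tested, 5.4% had all RoraEKO libraries above all controls and 7.54% had them below. Of the 42 tested members, 4 did so in each direction. *Gpx4*, which reduces lipid hydroperoxides and guards against ferroptosis, ran from 21.3 to 67.0 CPM in controls and 20.9 to 48.0 CPM in RoraEKO libraries (log2 fold change -0.15, standard error 0.425). *Gpx2* and *Gpx3* were below 3 CPM in every library, and *Gpx7* and *Gpx8*, at 14 counts or fewer per library, were not tested.

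The peroxiredoxins, abundant peroxidases that draw on thioredoxin or glutathione, had log2 fold changes from -0.42 to 0.24 and none of the 5 was called. *Prdx1* was among the steadiest members at 97.6 to 125 CPM in controls and 105 to 127 CPM in RoraEKO libraries. *Prdx2*, of which red cells hold much, read 396, 297, 246 and 296 CPM in controls and 249, 247, 228 and 202 CPM in RoraEKO libraries, with overlap between RoraEKO A3 and B4 and control C1 (log2 fold change -0.42, adjusted p = 0.211 by the edgeR quasi-likelihood test). Of the superoxide dismutases, cytosolic *Sod1* read 8.83, 4.70, 6.44 and 2.97 CPM in controls and 4.31, 3.70, 2.07 and 2.30 CPM in RoraEKO libraries (log2 fold change -0.89, standard error 0.413, adjusted p = 0.224). Mitochondrial *Sod2* and extracellular *Sod3* had log2 fold changes of -0.23 and 0.34, and the genotypes overlapped for all 3.

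Cytosolic glutathione S-transferases, which join glutathione to electrophiles, held 3 of the 5 called members. Of the 9 genes, 8 were tested, 1 rose, 2 fell and 5 were not called. *Gsto1* (chr19:47842686-47853229, plus strand), an omega-class enzyme that also reduces dehydroascorbate and deglutathionylates proteins, read 79.7, 107, 137 and 78.9 CPM in controls and 251, 302, 234 and 217 CPM in RoraEKO libraries. Every RoraEKO library was above every control by a wide margin. The means of 100.6 ± 27.4 and 251 ± 36.8 CPM (SD, n = 4 each) gave a 2.5-fold difference (log2 fold change 1.32, standard error 0.216, adjusted p = 0.00498 by the edgeR quasi-likelihood test). It was called under all 23 alternatives, at log2 fold changes from 1.22 to 1.5.

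*Gsta2* and *Gstm5* moved the other way. *Gsta2* (chr9:78238292-78263077, minus strand), an alpha-class enzyme, read 26, 36.7, 28.1 and 35.8 CPM in controls and 18.7, 19.6, 18.4 and 13.9 CPM in RoraEKO libraries. No RoraEKO library reached the lowest control (log2 fold change -0.84, standard error 0.168, adjusted p = 0.0140 in the quasi-likelihood fit of edgeR). The call was lost without control B1, without RoraEKO C2, with *Xist* as a covariate (adjusted p = 0.0609) and without both *Xist*-positive controls, over which the adjusted p reached 0.105. Its neighbour *Gsta1* has a canonical transcript 97.1% identical to that of *Gsta2*, so the division of reads between the pair is uncertain. *Gsta1* read 26.8, 30.2, 33.0 and 28.2 CPM in controls and 37.3, 40.4, 24.5 and 23.8 CPM in RoraEKO libraries, with no consistent side. The sum of the pair was 61.2 ± 6.11 CPM in controls and 49.2 ± 10.6 CPM in RoraEKO libraries (SD, n = 4 each), a difference that did not pass an exact two-sided permutation test (p = 0.114, with 0.0286 the smallest that 70 arrangements allow). The ratio of *Gsta2* to *Gsta1* ran from 0.851 to 1.27 in controls and from 0.485 to 0.752 in RoraEKO libraries.

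*Gstm5* (chr3:107803137-107806005, plus strand), a mu-class enzyme, read 36.7, 48.5, 31.8 and 59.0 CPM in controls and 21.9, 11.5, 21.1 and 16 CPM in RoraEKO libraries. Again no library of one genotype overlapped the other (log2 fold change -1.32, standard error 0.292, adjusted p = 0.0131 in the quasi-likelihood fit of edgeR). The call was lost with *Xist* as a covariate (adjusted p = 0.0550), without both *Xist*-positive controls and without RoraEKO C3. Its canonical transcript shares 71.5% to 73.4% identity with those of *Gstm1*, *Gstm2* and *Gstm6*, and part of its exons overlaps a counted gene on the opposite strand. The other mu-class members had log2 fold changes above 0, and of the mu-class genes outside the list, *Gstm6* and *Gstm7* lay above 0 and *Gstm4* below it, at -0.28. *Gstm1* read 13.6, 17, 19.9 and 15.2 CPM in controls and 18.0, 28.4, 33.8 and 25.8 CPM in RoraEKO libraries (log2 fold change 0.69, adjusted p = 0.0800 in that fit), and *Gstm2* had a log2 fold change of 0.46 (adjusted p = 0.152). *Gstm1* and *Gstm2* share 86.1% identity over their aligned transcripts. *Gsta4*, which conjugates the lipid aldehyde hydroxynonenal, read 0.647, 0.601, 1.56 and 0.450 CPM in controls and 2.02, 5.42, 0.867 and 1.15 CPM in RoraEKO libraries, a log2 fold change of 1.55 with a standard error of 0.658 that was not called. *Gstp1* had a log2 fold change of -0.57 and *Gsta3*, at 22 counts or fewer per library, was not tested.

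The microsomal glutathione S-transferases were not called. *Mgst2* (chr3:51567781-51590098, plus strand), a membrane enzyme that can also make leukotriene C, read 32.8, 44.5, 55.4 and 44.6 CPM in controls and 57.1, 68.5, 82.6 and 73.1 CPM in RoraEKO libraries. The genotypes did not overlap, although control C1 and RoraEKO A3 were nearly level (log2 fold change 0.67, standard error 0.191, adjusted p = 0.0557 in the quasi-likelihood fit of edgeR). It was called under 11 of 23 alternatives, among them the letter as a block (adjusted p = 0.00604) and *Xist* as a covariate (adjusted p = 0.0469), but not without both *Xist*-positive controls (adjusted p = 0.0609), and in 2 of the 8 fits that left out a single library, those without control C1 and without RoraEKO A3. *Mgst1* read 14.0, 5.85, 3.31 and 5.44 CPM in controls and 18.7, 10.4, 4.53 and 14.5 CPM in RoraEKO libraries, and *Mgst3* read 121, 37.9, 25.4 and 23.2 CPM against 73.0, 56.7, 20.0 and 39.5 CPM. Both overlapped between genotypes, and control A1 stood well above the other controls in each. With *Xist* as a covariate the log2 fold change of *Mgst3* moved from -0.14 to -0.78 and that of *Mgst1* from 0.74 to 0.26, neither called.

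Genes for iron storage and for export of glutathione conjugates had log2 fold changes from -0.94 to -0.51. *Fth1* (chr19:9957911-9962462, plus strand), the ferritin heavy chain that oxidises iron for storage, read 107, 109, 99.8 and 71.4 CPM in controls and 54.9, 66.6, 41.9 and 39.1 CPM in RoraEKO libraries. The genotypes were separate by a narrow margin, set by control C6 and RoraEKO B4 (log2 fold change -0.94, standard error 0.228, adjusted p = 0.0247 in the quasi-likelihood fit of edgeR). Of the 5 called members it lost its call most often, in 5 of the 8 fits that left out a single library (control B1 or C1, RoraEKO A3, C2 or C3) and without both *Xist*-positive controls, with adjusted p up to 0.106. A counted gene on the opposite strand overlaps its exons, and the strand setting of the counting is not given in the sources used here. *Ftl1*, the ferritin light chain, read 76.2, 44.1, 36.8 and 19.3 CPM in controls and 37.5, 39.8, 21.9 and 24.5 CPM in RoraEKO libraries, with a wide overlap. *Abcc1*, which exports glutathione conjugates, ran from 96.9 to 167 CPM in controls and from 66.6 to 96.2 CPM in RoraEKO libraries, just separate (log2 fold change -0.51, standard error 0.213, adjusted p = 0.192 in that fit). Control C6 was the highest by far. Leaving it out gave a log2 fold change of -0.29, against -0.24 without both *Xist*-positive controls and -0.27 with *Xist* as a covariate.

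Levels can be compared between genes only per length. Per kilobase of canonical transcript, *Prdx5* was highest of the 46 genes in both genotypes, at 269 ± 20.3 CPM per kb in controls and 236 ± 36.2 in RoraEKO libraries (SD, n = 4 each). *Hmox1* came second at 204 ± 157 and 226 ± 94.5 CPM per kb, a spread too wide to separate it from *Prdx5*, *Prdx2* or *Gpx1*. *Gsto1* moved from place 9 to place 4, at 52.8 and 132 CPM per kb, and *Fth1* from place 6 to place 10, at 104 and 54.5 CPM per kb. *Slc7a11* was at 0.152 CPM per kb in controls, at place 44 of 46, and at 2.64 CPM per kb in RoraEKO libraries, so even after its rise it remained a low transcript among these genes, between the levels of *Prdx3* (3.74) and *Gclc* (1.65).

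Much of the variation of the list ran between libraries of one genotype. Over the 42 tested members, the median log2 difference from the control mean was 0.18, 0.00, -0.09 and -0.13 in control A1, B1, C1 and C6, and 0.10, 0.25, -0.30 and -0.23 in RoraEKO A3, B4, C2 and C3. In both genotypes the A and B libraries thus had higher medians than the C libraries. Control A1 held the highest value of 16 members (38.1%, against 24.2% of all genes), and RoraEKO B4 of 10 (23.8%, against 12.8%). In 9 members (21.4%) every A and B library was above every C library within both genotypes, against 10.7% of all genes. These were *Fth1*, *Ftl1*, *G6pdx*, *Gpx2*, *Hmox1*, *Mgst3*, *Prdx2*, *Taldo1* and *Tkt*. The reverse order was found in *Mgst2* alone (2.38%, against 10.3% of all genes). The labels do not say what the letters stand for. Controls C1 and C6 are also the *Xist*-positive controls, so among controls the letter and *Xist* cannot be told apart.

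**Figure D3:**
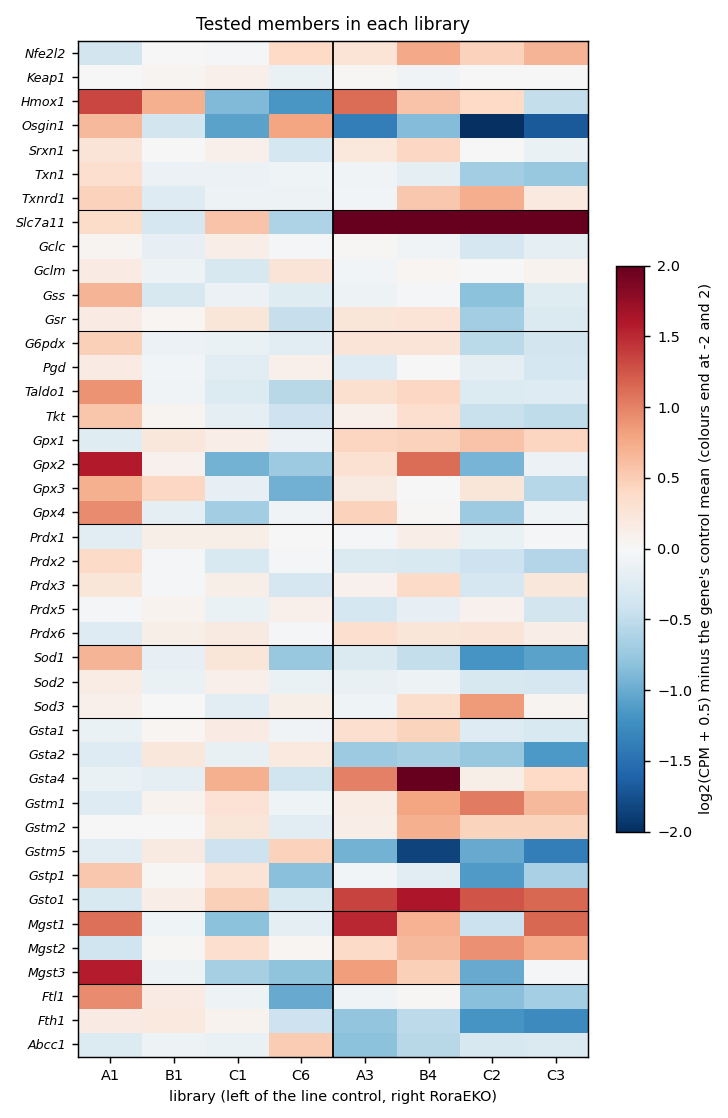
Heat map of the 42 tested members (rows, in role groups) in 8 libraries (columns, control left and RoraEKO right of the line), coloured by log2(CPM + 0.5) minus the control mean of the gene, with colours ending at -2 and 2. Slc7a11 and Gsto1 are red in all 4 RoraEKO libraries, Gsta2, Gstm5 and Fth1 are blue there, and control A1 is red in many rows that change little between genotypes.

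Hair follicle transcripts followed the same order of libraries. The 5 markers of inner sheath and hair shaft (*Krt25*, *Krt27*, *Krt71*, *Krt31* and *Tchh*) summed to 48300, 25450, 8489 and 7920 CPM in controls and 32900, 31970, 14800 and 15740 CPM in RoraEKO libraries. Among controls, A1 was highest and C1 and C6 lowest, as for *Hmox1*, *Mgst3* and *Taldo1*. The genotypes overlapped, and none of the 5 was called. *Slc7a11* did not follow that order, at 1.83, 0.929, 2.18 and 0.676 CPM in the same controls. With the marker sum as a covariate, chosen after the data were seen, 5 members were called higher and 6 lower, and calls over all genes also rose, to 3.7% higher and 4.49% lower. The additions were *Nfe2l2*, *Gstm1* and *Mgst2* among the higher and *Osgin1*, *Sod1* and *Ftl1* among the lower, and the 5 members of the first fit were called again. The part of hair follicle tissue in the members' values beyond this fit was not tested.

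**Figure D4:**
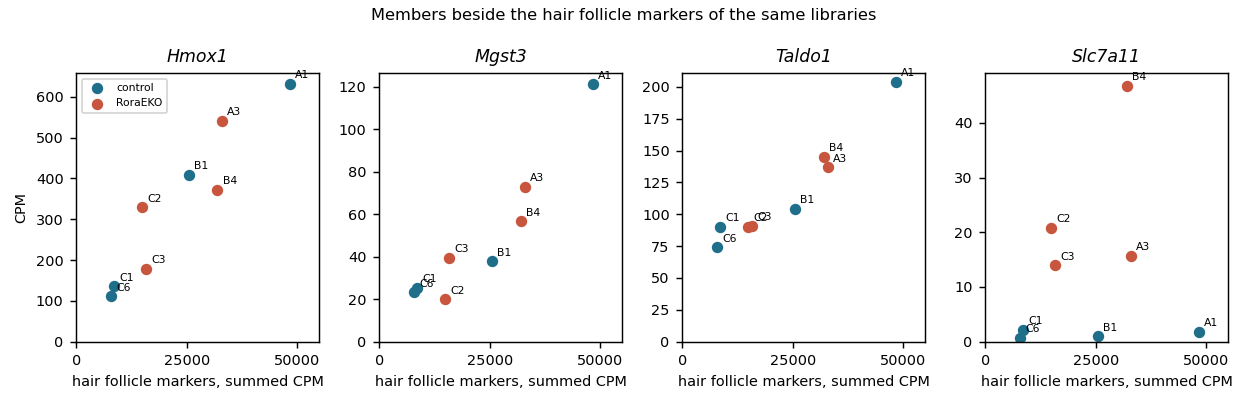
CPM of Hmox1, Mgst3, Taldo1 and Slc7a11 in each library (points, with the library named beside each) against the summed CPM of 5 hair follicle markers in the same library. The first 3 genes are highest in control A1, where the markers are highest at 48300 CPM, while Slc7a11 ran from 13.9 to 46.8 CPM in RoraEKO libraries and from 0.676 to 2.18 CPM in controls, whose marker sums reach both lower and higher than those of RoraEKO.

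No tested marker of other cell types was called in either direction. None of the 4 neutrophil and 3 endothelial markers passed the filter on low counts, so they were not tested. Of adipocyte, skeletal muscle and dermal fibroblast markers, 1 of 4, 2 of 4 and 3 of 6 were tested. Dermal fibroblast markers summed to 1.37 to 10.4 CPM, endothelial markers to 0.219 to 2.75 CPM and neutrophil markers to 0.337 CPM or less over all libraries, with *Ly6g*, *Elane* and *Retnlg* at 3 counts or fewer in every library. Langerhans cell markers ran from 59.6 to 180 CPM in controls and 59.8 to 81.8 CPM in RoraEKO libraries, and macrophage markers from 7.54 to 16.4 and 9.59 to 11.9 CPM. Erythroid markers ran from 47.9 to 334 CPM in controls and 125 to 1042 CPM in RoraEKO libraries, and the 5 tested had fitted fold changes of 3.17 to 3.95, with none called (adjusted p from 0.165 to 0.279 in the edgeR quasi-likelihood fit). Of the melanocyte markers, *Pmel* was lower in every RoraEKO library than in any control (log2 fold change -0.84, adjusted p = 0.104), *Dct* and *Tyrp1* had log2 fold changes of -0.95 and -0.80 with overlap, and *Mlana* one of -0.23. The part of these cells in the members' values was not tested. Sebocyte markers ran from 95.7 to 306 and 66.2 to 146 CPM. Adipocyte markers, nearly all *Fabp4*, and T cell and skeletal muscle markers also overlapped between genotypes. Of the keratinocyte lists, the spinous sum alone was separate by genotype, through *Krt1* and *Krt10*. Of single markers, granular *Casp14* was higher in every RoraEKO library than in any control (log2 fold change 0.64) and basal *Krt15* lower (-0.57), neither called. The part of these markers in the 5 called members was not tested.

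Other genes of the pathway were also mostly not called. Of 73 further NRF2 and antioxidant genes, 61 were tested, 3 rose, 1 fell and 57 were not called. Over all genes tested, the shares called were 2.3% higher and 3.22% lower. Log2 fold changes of the 61 lay above 0 for 19 and below 0 for 42, with a median of -0.18. All 3 that rose belong to the 30 other NRF2-responsive enzymes. *Cbr3*, a carbonyl reductase, read 18.0, 26.1, 25.5 and 21.1 CPM in controls and 31, 51, 39.7 and 34.7 CPM in RoraEKO libraries (log2 fold change 0.79, adjusted p = 0.0352 by the edgeR quasi-likelihood test). *Gstm6*, a further mu-class transferase, read 3.92, 4.37, 6.11 and 3.60 CPM against 6.13, 10.7, 9.40 and 10.6 CPM (log2 fold change 1.04, adjusted p = 0.0303), and its transcript is 88.5% identical to that of *Gstm2* over the aligned part. *Pir*, pirin, an iron-binding nuclear protein, read 1.75, 1.15, 1.14 and 2.18 CPM against 2.68, 3.16, 4.38 and 4.59 CPM (log2 fold change 1.24, adjusted p = 0.0385). In each of the 3, every RoraEKO library was above every control. All 3 calls were lost with *Xist* as a covariate, without both *Xist*-positive controls, and without control B1 or RoraEKO B4, C2 or C3. Of the 8 fits that left out a single library, *Cbr3* was called in 1 and *Gstm6* and *Pir* in 3 each, *Cbr3* being lost also without control A1, C1 or C6, *Gstm6* without C6 and *Pir* without C1.

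The 31 other antioxidant enzymes, 27 of them tested, had a median log2 fold change of -0.30, with values above 0 in 5 and below 0 in 22. *Cat*, the peroxisomal catalase that breaks down hydrogen peroxide, fell in all 4 RoraEKO libraries and was the only one called (log2 fold change -1.90, adjusted p = 0.00908 in the quasi-likelihood fit of edgeR). RoraEKO B4, which had the highest *Slc7a11* and *Gsto1* values, had the lowest *Cat* value, at 42.5 CPM against 105 to 121 CPM in the other RoraEKO libraries and 262 to 501 CPM in controls. The sum of basal keratinocyte markers was also highest in RoraEKO B4, at 1190 CPM. It was 268 to 377 CPM in the other RoraEKO libraries and 245 to 591 CPM in controls. *Krt14* (706 CPM) and *Krt5* (371 CPM) carried the sum in B4, whereas *Krt15* was lowest there, at 55.4 CPM. *Col17a1* and *Itga6* in B4 were level with the highest control. The part of basal markers in these values was not tested. Without both *Xist*-positive controls the adjusted p for *Cat* was 0.0582.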

How the data were processed

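Polyadenylated RNA was sequenced as stranded TruSeq libraries; per the labels, reads were mapped to GRCm39 with STAR 2.5.3a and genes counted with RSEM. The authors deposited expected counts per gene as estimated by RSEM for 8 libraries, not scaled for depth or length; 97% of the values, zeros included, were exactly whole. The annotation release and the strand setting of the counting are not given in the sources used here. Counts were rounded to whole numbers, filtered with filterByExpr and scaled by TMM. The genotypes were compared in R 4.3.3 with edgeR 4.0.16 (quasi-likelihood), with Benjamini-Hochberg adjustment over all 13147 genes. Calls required an adjusted p under 0.05 together with at least 1.5-fold. Symbols and GRCm39 coordinates came from GENCODE M39, in which 54749 of 55416 identifiers were found. Promoter windows came from RefSeq on GRCm38.p6, with 39 of 46 members matched, and were not converted between builds. Transcript identities come from local alignment of canonical transcripts, since no protein sequences were used here.

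Members and lists were chosen with earlier results of these data known. Named were all called members, *Nfe2l2* and *Keap1*, *Nqo1*, *Gclc*, *Gclm*, *Hmox1*, *Txnrd1*, *Srxn1*, *Slc7a11* and *Osgin1*, members whose genotypes did not overlap, and called genes of the other lists; other genes appear as examples of their group. The TGATGNAA search and the hair follicle covariate were added after the data were seen. Alternatives were other scalings, tests (DESeq2 1.42.0 among them), filters, cutoffs and covariates, and each library left out. The procedure was tested on simulated data.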

Additional observations from a re-analysis of the deposited data

Results flagged for a closer look

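Control A1 stood apart from the other 3 controls by Dixon's test in 4 members. It read 124.8 CPM for *Txn1* against 91.3 to 93.0 CPM in the others, 4.301 CPM for *Gss* against 1.91 to 2.27 CPM, 157.3 CPM for *G6pdx* against 96.1 to 104.5 CPM and 121.3 CPM for *Mgst3* against 23.2 to 37.9 CPM. These were 4 of 100 sets of 4 libraries, from the 46 members and the 4 other pathway genes that were called, in each genotype, and chance alone marks about 5% of such sets. None of the 4 members was called between genotypes.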

How the results depend on the processing

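The 2 members called higher became 4 under DESeq2, the likelihood ratio test and the exact test of edgeR, the replicate block by title letter and an adjusted p of 0.1, and 5 with the hair follicle covariate. The 3 called lower became 1 with *Xist* as a covariate, 0 without both *Xist*-positive controls (a fit of 2 controls against 4 RoraEKO libraries in which 44 members were tested), and 6 with the hair follicle covariate. Leaving out a library at a time gave 2 to 4 members higher and 1 to 3 lower. The lower calls were down to 1 without control B1, RoraEKO C2 or RoraEKO C3, and the higher ones up to 4 without RoraEKO A3. No named gene reversed its direction while called. Over all genes, 302 were called higher and 423 lower; DESeq2 gave 478 and 553, the hair follicle covariate 486 and 590, the *Xist* covariate 182 and 290, the fit without both *Xist*-positive controls 147 and 167, and the fits without control B1 and without RoraEKO C3 174 and 283, and 188 and 287. Library size alone gave 245 and 482. Of the other pathway genes, the 3 called higher became 1 with library size alone and 0 with the *Xist* covariate or without both *Xist*-positive controls; the 1 called lower became 2 with library size alone, DESeq2, the likelihood ratio and exact tests, the replicate block, the hair follicle covariate, no minimum fold and an adjusted p of 0.1, and 0 without both *Xist*-positive controls; leaving out single libraries gave 0 to 3 higher and 1 to 4 lower, the 4 without control A1. The member median ran from -0.17 to 0.11 over those fits. The causes of these changes were not tested. Title letters do not pair the samples by any label. Between genotypes, the deviations of same-letter libraries correlated at 0.05 (B) to 0.483 (A) over genes, and those of different letters at -0.517 to 0.282. The letter as replicate block gave 420 genes higher and 579 lower. *Nqo1*, *Gpx7*, *Gpx8* and *Gsta3*, at 22 counts or fewer per library, were tested and not called when all genes with at least 1 count were kept.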
